A study of Arabidopsis thaliana with 29 samples.

Results

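Transcript levels were compared between whole Arabidopsis thaliana plants of the accession Col-0 (written Col0) after 12 days without water (Col0 12D) and plants of the same accession at the start of the dry period (Col0 0D). Each group held 3 libraries, so that the comparison used 6 of the 29 libraries of the series. It covered the 16193 of 33681 loci that reached at least 1 TPM (a share of all transcripts in a library, corrected for transcript length) in at least 3 of these 6 libraries. Plants were 3 weeks old when watering stopped and had been grown in soil under long days. Both groups were wild type. No plants that were watered to 12 days are labelled, so lack of water and 12 days of age cannot be told apart. The labels do not say whether replicates came from separate plants or pots. The p-values therefore measure the spread between libraries within groups, estimated over all 29 libraries. The mutant pp7l is used below for a comparison at 12D and 0D, with 3 libraries in each group. Its allele number differs between the sample labels and the series text.

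Drying soil lowers the water status of leaves and raises the hormone abscisic acid (ABA). ABA binds PYR/PYL/RCAR receptors, which then block clade A PP2C phosphatases, so that SnRK2 kinases become active and phosphorylate ion channels of guard cells and bZIP transcription factors. These factors bind ABA-responsive elements in promoters and switch on genes for dehydrins, other late embryogenesis abundant (LEA) proteins and enzymes of compatible solutes, while DREB factors act through another element. Growth and photosynthesis are turned down during severe drought, and older leaves can enter senescence, in which chlorophyll and proteins are broken down and nutrients exported.

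The libraries differed in what they were made of. Plastid loci held 54.3, 45.6 and 31.5% of all TPM in the Col0 12D libraries and 72.5, 70.7 and 74.8% in the Col0 0D libraries. Nuclear rRNA loci held 0.077, 0.059 and 25% of TPM in the Col0 12D libraries and 0.014, 0.018 and 0.012% in the Col0 0D libraries, so that replicate 3 of Col0 12D stood apart. Mitochondrial loci held 2.23, 2.1 and 1.53% at 12D and 0.721, 0.709 and 0.717% at 0D. The values are shares of a fixed total. No counts are given, so the depth is unknown. Within each group, pairs of libraries had a Spearman correlation across loci of 0.95 or more.

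**Figure D1:**
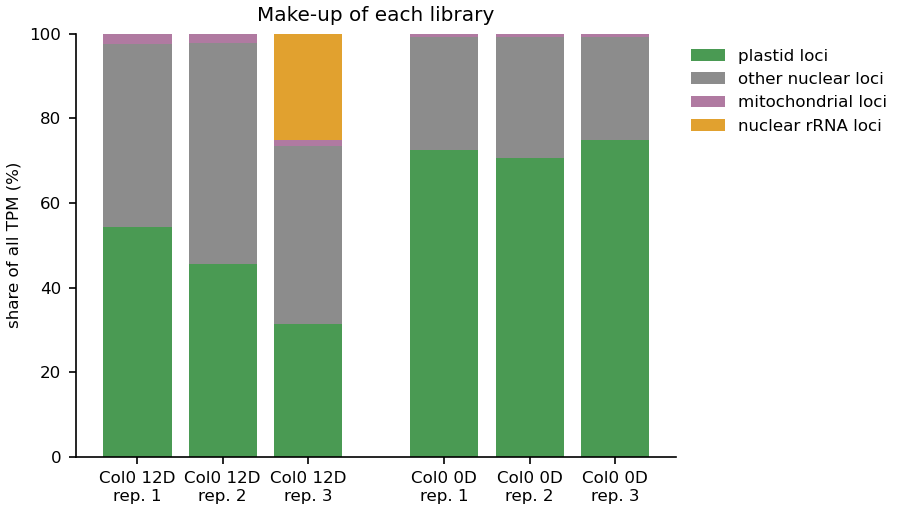
Share of all TPM (%) held by plastid, other nuclear, mitochondrial and nuclear rRNA loci in each Col0 12D library (left) and each Col0 0D library (right). Plastid loci held less in all 3 Col0 12D libraries than in any Col0 0D library, and Col0 12D replicate 3 gave 25% to rRNA.

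On the log2(TPM + 1) scale the median locus was 1.16 higher at 12D than at 0D. It was 0.09 higher once libraries were scaled by their median of ratios. A locus was therefore called changed when limma gave an adjusted p below 0.05 in the same direction on both scales. Every change below is a relative change, the log2(TPM + 1) difference (Col0 12D minus Col0 0D) less that median. Every adjusted p is the larger of both scales. It tests the change on each scale before the median is taken off, and not the relative change. This scale understates the change of loci at a few TPM. By this rule 8248 loci (50.9%) changed, 6263 of them higher (38.7%) and 1985 lower (12.3%). On TPM alone the split was 10774 higher and 1985 lower, and after scaling alone 6263 higher and 5655 lower. A further 573 loci were called in opposite directions on the 2 scales and left uncalled here. The rise was at least 4-fold relative to the median locus at 815 of the higher loci, and the fall at 1681 of the lower ones. The values of the Col0 12D libraries lay wholly above those of the Col0 0D libraries at 11512 loci (71.1%) and wholly below at 2308 (14.3%). Of the loci tested, 3641 reached 1 TPM in all 3 libraries at 12D and in none at 0D, and 538 did so the other way round. Such loci had to differ, and they include 2988 of the higher and 534 of the lower calls. Beside each gene list, the members that passed the filter through 12D alone or through 0D alone are counted, since the filter fixed the direction of their TPM. Among the 9277 loci at 1 TPM or more in all 6 libraries, 2171 were higher and 1093 lower. Leaving out Col0 12D replicate 3, the library with high rRNA, gave 5858 higher and 1740 lower loci among the same 16193.

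Among the 12 loci with the largest relative rise were 3 of the dehydrin and LEA list and 2 lipid transfer proteins. The highest was LTP4 (AT5G59310), a lipid transfer protein of the cell surface. It had 1810, 2562 and 2629 TPM at 12D, against 0.725, 1.19 and 0.973 TPM at 0D, a relative change of 9.05 ± 0.43 (SE), adjusted p = 6.54e-17. ELIP1 (AT3G22840), which binds chlorophyll and shields chloroplasts from strong light, had 1844, 2877 and 3057 TPM at 12D, against 1.37, 1.66 and 0.906 TPM at 0D, a relative change of 8.95 ± 0.52 (SE), adjusted p = 1.17e-13. The ABA-responsive dehydrin RAB18 (AT5G66400) had 2264, 2426 and 3455 TPM at 12D, against 2.27, 1.08 and 1.69 TPM at 0D, a relative change of 8.83 ± 0.52 (SE), adjusted p = 7.02e-13. All 3 transcripts were at 2.27 TPM or less in each Col0 0D library and at 1810 TPM or more in each Col0 12D library. Means below are given ± SD over the 3 libraries of a group. The dehydrin LTI30 (AT3G50970) averaged 2323 ± 567 TPM at 12D and 4.89 ± 0.486 TPM at 0D (SD, n = 3 each), a relative change of 7.44 ± 0.48 (SE), adjusted p = 8.76e-15. LEA7 (AT1G52690), a LEA protein, had 427, 612 and 605 TPM in the Col0 12D libraries and was listed at 0 in all 3 Col0 0D libraries. LTP3 (AT5G59320), which lies next to LTP4 in the numbering of loci and encodes a similar protein, had 1395, 1290 and 1141 TPM at 12D, against 6.04, 4.0 and 6.85 TPM at 0D. Reads of such similar copies may have been shared between them.

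The other large rises were of several kinds. GPT2 (AT1G61800), which carries glucose 6-phosphate into plastids, had 257, 562 and 620.3 TPM at 12D, against 0.12, 0.151 and 0.272 TPM at 0D, a relative change of 7.41 ± 0.45 (SE), adjusted p = 2.32e-14. SIP2 (AT3G57520), an alpha-galactosidase that splits raffinose, averaged 890.3 ± 258 TPM at 12D and 2.83 ± 0.60 TPM at 0D, a relative change of 6.67 ± 0.45 (SE), adjusted p = 6.48e-14. TSPO (AT2G47770), a stress-induced membrane protein that is degraded by autophagy, averaged 303 ± 37 TPM at 12D and 0.0701 ± 0.00567 TPM at 0D, a relative change of 6.99 ± 0.40 (SE), adjusted p = 1.99e-15. CSLG2 (AT4G24000), of the cellulose synthase-like family, averaged 206 ± 40.6 TPM at 12D and 0.0792 ± 0.042 TPM at 0D, and AT1G05340, a small cysteine-rich transmembrane protein, 1159 ± 255 TPM at 12D and 1.73 ± 0.495 TPM at 0D. The group was completed by GILT (AT4G12960), named for a thiol reductase of lysosomes in animals, with 142, 232 and 314 TPM at 12D and 0 in all 3 libraries at 0D. In none of the 12 did the libraries of the groups overlap, which the rule for naming them required.

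**Figure D2:**
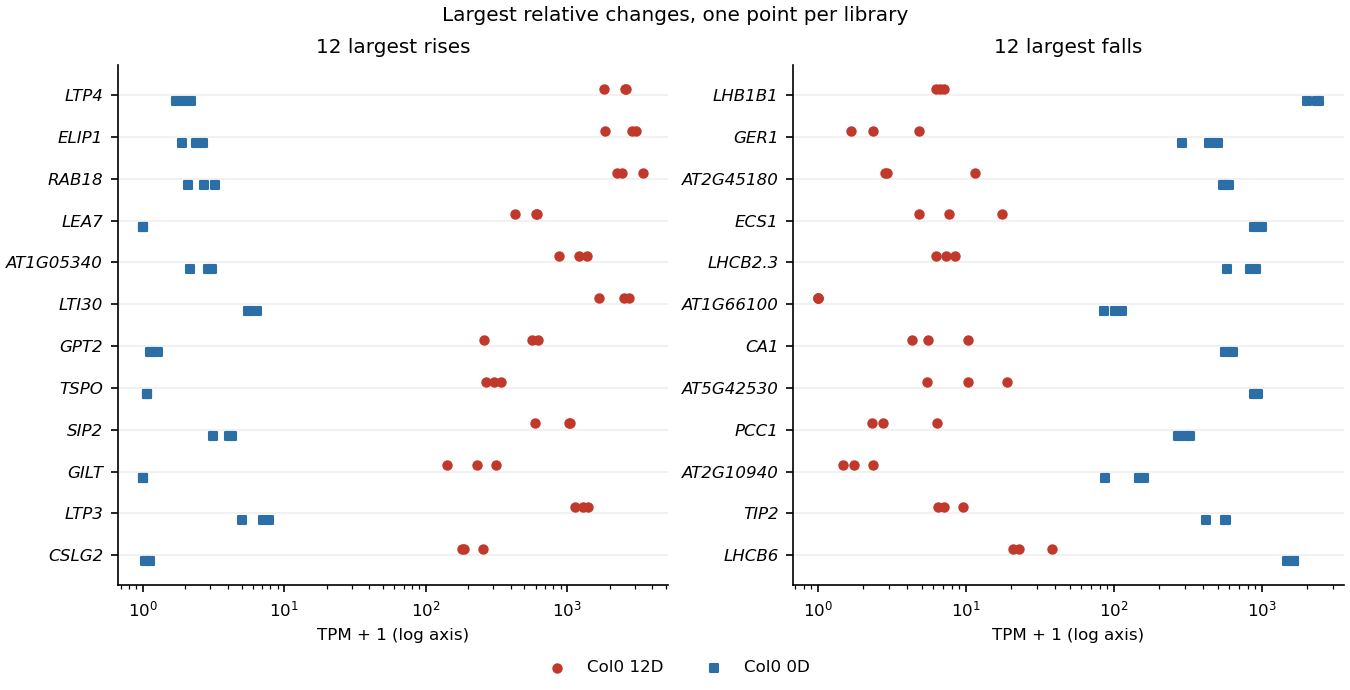
TPM + 1 (log axis) of the 12 loci with the largest relative rise (left) and the 12 with the largest fall (right) among called loci that averaged 10 TPM or more in either group. Each point is 1 library, Col0 12D as red circles above and Col0 0D as blue squares below each line, and for LTP4 the red points sit near 2334 TPM and the blue ones near 0.961 TPM.

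Genes of the ABA pathway moved in different directions by role. Among genes of ABA synthesis, breakdown and release, 8 of 12 members tested (6 through 12D alone) were called higher and 0 lower, with a median relative change of 0.63. Over all loci 38.7% were higher and 12.3% lower, and their median relative change is 0 by construction. NCED3 (AT3G14440), the enzyme of the regulated cleavage step of ABA synthesis, had 34.7, 55.6 and 68.6 TPM at 12D, against 4.65, 5.46 and 3.26 TPM at 0D, a relative change of 2.12 ± 0.30 (SE), adjusted p = 3.31e-07. AAO3 (AT2G27150), the oxidase of the last step, averaged 23 ± 6.01 TPM at 12D and 0.384 ± 0.0599 TPM at 0D, a relative change of 2.93 ± 0.25 (SE), adjusted p = 4.34e-14. CYP707A1 (AT4G19230), which breaks ABA down, was higher too, with 22.4 ± 2.61 TPM at 12D against 1.01 ± 0.0788 TPM at 0D. Of the receptors, 1 of 7 members tested (1 through 0D alone) were called higher and 4 lower, with a median relative change of -1.88. A further 7 receptors stayed below the filter. PYL4 (AT2G38310) had 0.625 ± 0.115 TPM at 12D against 4.8 ± 1.89 TPM at 0D, a relative change of -2.93, and PYL1 (AT5G46790) 3.82 ± 1.23 TPM at 12D against 8.67 ± 0.231 TPM at 0D, a relative change of -2.2. PYL7 (AT4G01026) was higher with 23.9 ± 3.7 TPM at 12D against 4.61 ± 1.42 TPM at 0D, a relative change of 1.02.

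All 9 clade A PP2C phosphatases, the proteins that the receptors block, were tested (4 through 12D alone) and called higher, with a median relative change of 2.58. HAI1 (AT5G59220) had 201, 256 and 258 TPM at 12D, against 0.618, 0.444 and 0.613 TPM at 0D, a relative change of 6.1 ± 0.34 (SE), adjusted p = 6.21e-15. PP2CA (AT3G11410) had 354, 341 and 326 TPM at 12D, against 25.2, 24.2 and 24.3 TPM at 0D, a relative change of 2.58 ± 0.32 (SE), adjusted p = 1.53e-09. ABI1 (AT4G26080) and ABI2 (AT5G57050), whose dominant mutants are insensitive to ABA, averaged 86 ± 0.578 TPM at 12D and 5.99 ± 0.271 TPM at 0D, and 115 ± 14 TPM at 12D and 2.46 ± 0.274 TPM at 0D. HAI3 (AT2G29380) had 35.9, 46.4 and 39.8 TPM at 12D and was listed at 0 in all Col0 0D libraries. Of the kinases and bZIP factors downstream, 7 of 9 members tested (3 through 12D alone) were called higher and 0 lower, with a median relative change of 0.68. OST1 (AT4G33950), the guard cell SnRK2 kinase, averaged 15.2 ± 2.39 TPM at 12D and 0.997 ± 0.264 TPM at 0D. The bZIP factors ABF2 (AT1G45249) and ABF4 (AT3G19290) averaged 9.84 ± 0.141 and 13.1 ± 1.31 TPM at 12D against 0.664 ± 0.148 and 2.06 ± 0.131 TPM at 0D.

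Transcription factors known from drought, of the NAC, HD-Zip and DREB families, were counted together: 20 of 25 members tested (9 through 12D alone) were called higher and 3 lower, with a median relative change of 2.63. The HD-Zip gene HB-7 (AT2G46680) had 167, 181 and 159.8 TPM at 12D, against 0.677, 0.914 and 0.699 TPM at 0D, a relative change of 5.44 ± 0.40 (SE), adjusted p = 6.15e-14. NAC032 (AT1G77450) averaged 166 ± 31.7 TPM at 12D and 0.794 ± 0.483 TPM at 0D, a relative change of 5.41 ± 0.39 (SE), adjusted p = 2.27e-14. DREB2A (AT5G05410), which binds the dehydration-responsive element, averaged 39 ± 12.7 TPM at 12D and 0.154 ± 0.0871 TPM at 0D, a relative change of 3.91 ± 0.32 (SE), adjusted p = 7.83e-12. In the other direction, the cold-responsive CBF2 (AT4G25470) had 1.34 ± 1.14 TPM at 12D against 8.05 ± 1.46 TPM at 0D (relative change -3.19).

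Dehydrins and LEA proteins, which are hydrophilic proteins held to protect membranes and enzymes in dry cells, had the highest median of the lists: 12 of 15 members tested (3 through 12D alone) were called higher and 2 lower, with a median relative change of 3.58. Next to the dehydrins above, COR47 (AT1G20440) averaged 412 ± 104 TPM at 12D and 6.84 ± 0.953 TPM at 0D, a relative change of 4.54 ± 0.41 (SE), adjusted p = 1.19e-12. ERD14 (AT1G76180) had 663 ± 40.1 TPM at 12D against 289.7 ± 19.7 TPM at 0D and was not called (relative change 0.04). The neighbouring loci COR15A (AT2G42540) and COR15B (AT2G42530), which encode similar chloroplast proteins, went in opposite directions. COR15A had 723, 672 and 584 TPM at 12D, against 83.2, 81.2 and 89.3 TPM at 0D, a relative change of 1.79 ± 0.59 (SE), adjusted p = 0.00479. COR15B had 7.4, 5.6 and 4.93 TPM at 12D, against 97.1, 101 and 120.3 TPM at 0D, a relative change of -5.11 ± 0.40 (SE), adjusted p = 8.44e-10. A like contrast was seen at the adjacent and closely similar KIN1 (AT5G15960) and KIN2 (AT5G15970). KIN1 had 237, 206 and 171 TPM at 12D, against 6.02, 5.84 and 6.29 TPM at 0D, a relative change of 3.7 ± 0.49 (SE), adjusted p = 9.06e-10. KIN2 had 335, 293 and 208 TPM at 12D, against 468, 448 and 501 TPM at 0D and was not called (a relative change of -1.94 ± 0.49 (SE), adjusted p = 0.14). Reads shared between such copies cannot be told apart here.

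Of the RD29, KIN and other stress-induced markers, 14 of 20 members tested (2 through 12D alone) were called higher and 0 lower, with a median relative change of 2.12. LTI65, better known as RD29B (AT5G52300), had 85.2, 110.0 and 127 TPM in the Col0 12D libraries and 0 in each Col0 0D library. LTI78, better known as RD29A (AT5G52310), had 258, 319.9 and 384 TPM at 12D, against 1.98, 2.91 and 1.67 TPM at 0D, a relative change of 5.5 ± 0.34 (SE), adjusted p = 5.86e-14. The pair lies side by side on chromosome 5. The 250 bases before their annotated starts are printed below because ABA and dehydration are known to act on this pair through elements in their promoters. Those of LEA7, ELIP1 and LTP4 stand for large rises, and that of the antenna gene LHB1B1 for the largest fall. The sequences are those of RefSeq's TAIR10.1 genome, read 5′ to 3′ on the strand of the gene, at chr5:21236771-21237020 (plus strand) for LTI65, chr5:21240467-21240716 (plus strand) for LTI78, chr1:19619474-19619723 (plus strand) for LEA7, chr3:8085670-8085919 (minus strand) for ELIP1, chr5:23925958-23926207 (minus strand) for LTP4 and chr2:14524357-14524606 (plus strand) for LHB1B1. Capitals mark matches on either strand to ACGTG (the core of the ABA-responsive element), CCGAC (the core of the dehydration-responsive element), CACGTG (the G-box, which contains ACGTG on both strands) or AAAATATC (the evening element).
LTI65: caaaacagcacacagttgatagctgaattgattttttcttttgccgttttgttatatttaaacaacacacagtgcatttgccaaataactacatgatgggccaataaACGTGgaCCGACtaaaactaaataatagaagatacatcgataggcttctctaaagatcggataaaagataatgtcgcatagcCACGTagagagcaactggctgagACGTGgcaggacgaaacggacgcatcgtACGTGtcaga
LTI78: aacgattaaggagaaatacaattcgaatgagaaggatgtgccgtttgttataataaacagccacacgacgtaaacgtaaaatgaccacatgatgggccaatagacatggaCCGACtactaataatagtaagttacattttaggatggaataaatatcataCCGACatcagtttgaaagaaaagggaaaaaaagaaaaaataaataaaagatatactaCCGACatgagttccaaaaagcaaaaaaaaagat
LEA7: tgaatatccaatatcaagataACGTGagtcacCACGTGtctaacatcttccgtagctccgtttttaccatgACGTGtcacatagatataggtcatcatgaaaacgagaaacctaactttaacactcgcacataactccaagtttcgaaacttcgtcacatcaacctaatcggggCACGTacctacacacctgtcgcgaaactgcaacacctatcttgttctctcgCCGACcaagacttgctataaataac
ELIP1: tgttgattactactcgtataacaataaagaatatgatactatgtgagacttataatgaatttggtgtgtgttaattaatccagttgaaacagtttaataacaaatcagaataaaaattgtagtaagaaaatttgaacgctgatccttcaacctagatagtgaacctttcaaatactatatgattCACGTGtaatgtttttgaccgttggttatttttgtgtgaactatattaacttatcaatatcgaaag
LTP4: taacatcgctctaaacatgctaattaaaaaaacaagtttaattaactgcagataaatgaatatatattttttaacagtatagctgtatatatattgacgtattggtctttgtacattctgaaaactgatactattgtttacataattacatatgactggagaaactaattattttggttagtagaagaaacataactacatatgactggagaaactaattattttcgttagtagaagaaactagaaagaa
LHB1B1: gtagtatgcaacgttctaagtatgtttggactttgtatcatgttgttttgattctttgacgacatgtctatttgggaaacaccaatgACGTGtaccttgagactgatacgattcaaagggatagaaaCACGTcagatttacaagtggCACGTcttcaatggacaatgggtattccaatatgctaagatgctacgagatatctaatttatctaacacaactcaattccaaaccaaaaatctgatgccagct

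Counted over both strands, the window of LTI65 held 4 matches to ACGTG and 1 to CCGAC, and that of LTI78 held 0 and 3. The window of LEA7 held 5 and 1, with 1 G-box, and that of ELIP1 held 2 matches to ACGTG, both within its 1 G-box. None of the 4 motifs was found in the window of LTP4, the locus with the largest rise, while that of LHB1B1 held 3 matches to ACGTG. Among protein-coding loci, ACGTG was present in the window of 39.2% of 808 loci called at least 4-fold higher and 23.1% of 1613 called at least 4-fold lower, beside 24.0% of all 15677 tested. The G-box was present in 15.8%, 6.88% and 7.8% of the same sets, CCGAC in 16.0%, 10.2% and 13.3%, and AAAATATC in 9.78%, 5.95% and 6.4%. These shares describe letters in the windows and not binding.

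Genes of compatible solutes held more higher than lower calls. Of the proline, raffinose and trehalose genes, 12 of 22 members tested (2 through 12D alone and 1 through 0D alone) were called higher. A further 9 were not called and 1 was lower, and the median relative change of the list was 0.46. Over all loci 38.7% were higher and 12.3% lower. P5CS1 (AT2G39800), the regulated enzyme of proline synthesis, had 116, 106 and 106 TPM at 12D, against 4.55, 6.04 and 3.86 TPM at 0D, a relative change of 3.11 ± 0.36 (SE), adjusted p = 4.1e-11. Its paralogue P5CS2 (AT3G55610) averaged 64.5 ± 9.11 TPM at 12D and 2.12 ± 0.76 TPM at 0D. The galactinol synthase GolS2 (AT1G56600), which feeds raffinose synthesis, averaged 116 ± 33.3 TPM at 12D and 15.7 ± 2.81 TPM at 0D. GolS1 (AT2G47180) had 3.88 ± 0.731 TPM at 12D against 3.49 ± 1.91 TPM at 0D and was not called. The heat shock list gave 20 higher and 0 lower of 21 tested, 16 through 12D alone, median relative change 1.14. HSP70 (AT3G12580) led the heat shock list with 168, 285 and 353 TPM at 12D, against 0.623, 0.293 and 0.418 TPM at 0D, a relative change of 6.33 ± 0.45 (SE), adjusted p = 6.31e-12. HSP101 (AT1G74310), a disaggregase, had 4.85 ± 2.2 TPM at 12D against 0.24 ± 0.097 TPM at 0D.

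Among antioxidant enzymes, 8 of 35 members tested (1 through 12D alone) were called higher and 7 lower, with a median relative change of -0.20. Among those called lower, TAPX (AT1G77490), the ascorbate peroxidase of thylakoids, had 1.43 ± 0.164 TPM at 12D against 21.9 ± 3.66 TPM at 0D and PRXQ (AT3G26060), a thylakoid peroxiredoxin, 8.88 ± 0.815 TPM at 12D against 74.2 ± 11.4 TPM at 0D. Higher members included the cytosolic glutathione reductase GR1 (AT3G24170) with 95.7 ± 19.7 TPM at 12D against 4.34 ± 0.735 TPM at 0D and the iron store FER1 (AT5G01600) with 715 ± 89.8 TPM at 12D against 81.3 ± 13.1 TPM at 0D. Alternative oxidases of mitochondria let electrons bypass part of the respiratory chain. Of these, AOX1A and AOX1D passed the filter and were called higher, while AOX1B, AOX1C and AOX2 did not pass it. AOX1A (AT3G22370) averaged 87.3 ± 23.2 TPM at 12D and 5.48 ± 0.301 TPM at 0D, a relative change of 2.57 ± 0.38 (SE), adjusted p = 1.34e-07. AOX1D (AT1G32350) averaged 52.8 ± 8.71 TPM at 12D and 0.166 ± 0.106 TPM at 0D, a relative change of 4.36 ± 0.58 (SE), adjusted p = 1.77e-07. The whole list of alternative respiration gave 4 higher and 0 lower of 9 tested, 1 through 12D alone, median relative change -0.15.

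Lists of senescence and breakdown held more higher than lower calls, as did all loci tested (38.7% higher and 12.3% lower). Of the senescence regulators and markers, 13 of 21 members tested (8 through 12D alone) were called higher and 2 lower, with a median relative change of 1.77, with HAI1 also on the list of phosphatases. ORE1 (NAC6 in the annotation, AT5G39610), a NAC factor that promotes leaf senescence, had 56.8, 79.2 and 54.6 TPM at 12D, against 0.559, 0.845 and 0.57 TPM at 0D, a relative change of 4.11 ± 0.38 (SE), adjusted p = 1.32e-12. SAG29 (AT5G13170), a sucrose transporter also known as SWEET15, had 103, 195 and 224 TPM at 12D, against 0.0539, 0.204 and 0.183 TPM at 0D, a relative change of 6.02 ± 0.39 (SE), adjusted p = 1.42e-14. SAG12 (AT5G45890), a protease found in senescing leaves, had 30.5, 27.7 and 27.8 TPM at 12D, against 0, 0 and 0.0955 TPM at 0D. SEN1 (AT4G35770), by contrast, was lower with 1.03 ± 0.521 TPM at 12D against 8.06 ± 1.07 TPM at 0D (relative change -3.34). Of chlorophyll breakdown genes, 8 of 12 members tested (1 through 0D alone) were called higher and 1 lower, with a median relative change of 1.79. PAO (ACD1 in the annotation, AT3G44880), which opens the chlorophyll ring, averaged 103 ± 9.5 TPM at 12D and 8.49 ± 2.38 TPM at 0D, and PPH (AT5G13800), which removes the phytol chain, 49.9 ± 2.98 TPM at 12D and 5.59 ± 0.417 TPM at 0D. CLH1 (AT1G19670), a chlorophyllase, fell to 0.35 ± 0.0955 TPM at 12D against 17.8 ± 2.08 TPM at 0D.

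Of 25 autophagy genes tested (3 through 12D alone), 16 were called higher and 0 lower, with a median relative change of 1.02. ATG8H (AT3G06420), of the family that marks the membranes of autophagosomes, averaged 67.6 ± 21.5 TPM at 12D and 5.37 ± 1.85 TPM at 0D, and the cargo receptor NBR1 (AT4G24690) 114 ± 13.9 TPM at 12D and 15.1 ± 3.63 TPM at 0D. Of the genes of fatty acid breakdown in peroxisomes and the glyoxylate cycle, 15 of 19 members tested (2 through 12D alone) were called higher and 1 lower, with a median relative change of 1.33. ACX1 (AT4G16760), the acyl-CoA oxidase of the first step, averaged 81.5 ± 11.2 TPM at 12D and 4.46 ± 1.41 TPM at 0D, a relative change of 2.79 ± 0.33 (SE), adjusted p = 2.69e-11. Genes of amino acid breakdown and of sugar starvation gave 11 higher and 3 lower of 25 tested, 5 through 12D alone, median relative change 0.04. These counts lie near the shares over all loci (38.7% higher and 12.3% lower). The lysine-degrading enzyme at AT4G33150 had 162 ± 24 TPM at 12D against 0.333 ± 0.0808 TPM at 0D and was higher. Of the asparagine synthetases, ASN1 (AT3G47340) had 3.53 ± 0.194 TPM at 12D against 5.57 ± 1.36 TPM at 0D and was not called, and ASN2 (AT5G65010) had 1.31 ± 0.0809 TPM at 12D against 5.04 ± 1.26 TPM at 0D and was lower.

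Starch and sugar genes differed between isoforms. Of starch genes, 18 of 32 members tested (4 through 12D alone) were called higher and 2 lower, with a median relative change of 0.75. APL4 (AT2G21590) and APL3 (AT4G39210), large subunits of ADP-glucose pyrophosphorylase known from sink tissue, averaged 117 ± 15.9 TPM at 12D and 0.701 ± 0.34 TPM at 0D, and 80.0 ± 10.4 TPM at 12D and 1.84 ± 0.377 TPM at 0D. The leaf subunit APL1 (AT5G19220) was lower with 4.42 ± 1.21 TPM at 12D against 26.6 ± 7.97 TPM at 0D (relative change -3.49). BAM1 (AT3G23920), the beta-amylase known from stress and guard cells, averaged 128 ± 43 TPM at 12D and 4.03 ± 0.709 TPM at 0D. Of sugar transporters, sucrose synthases and invertases, 15 of 28 members tested (5 through 12D alone and 1 through 0D alone) were called higher and 6 lower, with a median relative change of 0.59. SUS1 (AT5G20830), which splits sucrose, had 169, 234 and 197 TPM at 12D, against 2.51, 2.41 and 1.25 TPM at 0D, a relative change of 4.9 ± 0.34 (SE), adjusted p = 4.85e-14. The hexose carrier STP13 (MSS1 in the annotation, AT5G26340) averaged 116 ± 14.2 TPM at 12D and 4.76 ± 0.819 TPM at 0D. Lower were the hexose carrier STP1 (AT1G11260), with 3.65 ± 0.348 TPM at 12D against 24.4 ± 7.1 TPM at 0D, and the sucrose carrier SUC1 (AT1G71880), with 2.81 ± 0.367 TPM at 12D against 19.6 ± 1.93 TPM at 0D.

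**Figure D3:**
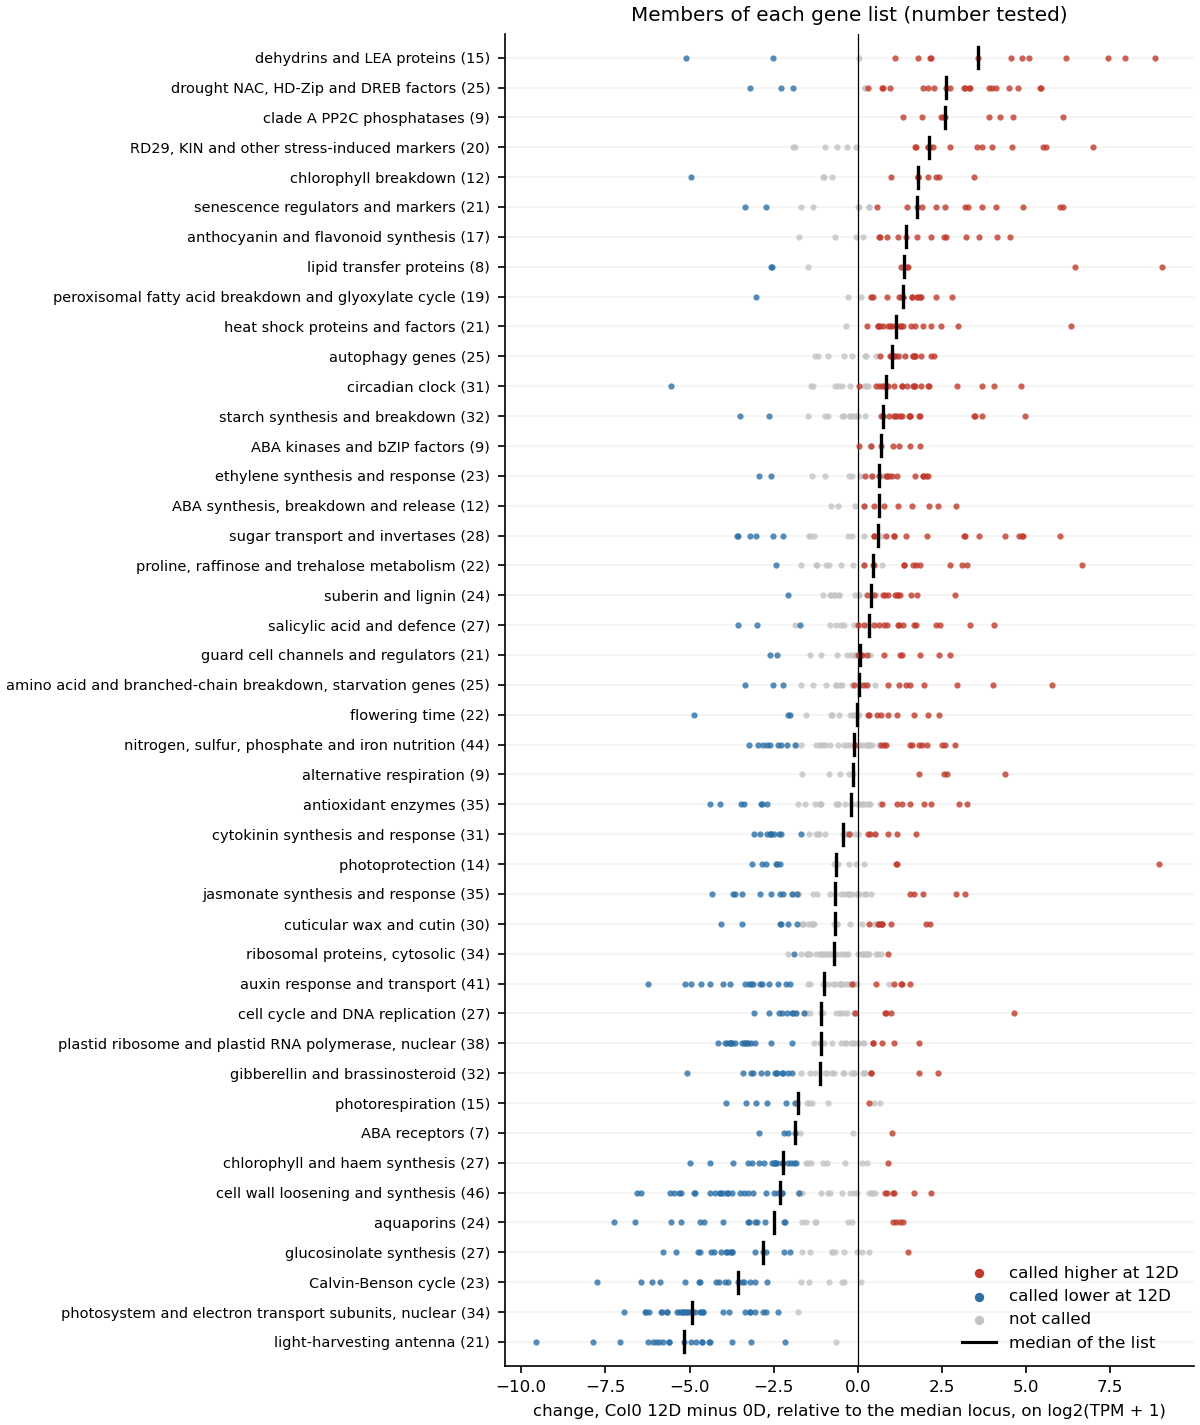
Relative change (x axis, on log2(TPM + 1), Col0 12D minus Col0 0D) of each tested member of 44 gene lists, one point per locus, red where called higher at 12D, blue where called lower and grey where not called. Black bars give each list's median, from 3.58 for dehydrins and LEA proteins at the top to -5.15 for the light-harvesting antenna at the bottom.

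The antenna, the photosystem subunits and the Calvin-Benson cycle had the lowest medians of the lists. Of the light-harvesting antenna, 0 of 21 members tested were called higher and 20 lower, with a median relative change of -5.15. LHB1B1 (AT2G34430), an antenna protein of photosystem II, had 5.61, 5.29 and 6.09 TPM at 12D, against 2348, 2408 and 2015 TPM at 0D, a relative change of -9.56 ± 0.36 (SE), adjusted p = 6.54e-17. CAB1 (AT1G29930), the highest nuclear protein-coding locus at 0D, had 529, 418 and 328 TPM at 12D, against 9685, 9942 and 8010 TPM at 0D, a relative change of -5.61 ± 0.56 (SE), adjusted p = 3.88e-08. The CAB and LHB1B copies are closely similar, so that reads may have been split between them, but all of them were lower. LHCB6 (AT1G15820) averaged 26.1 ± 9.38 TPM at 12D and 1591 ± 98.7 TPM at 0D, and LHCB2.3 (AT3G27690) 6.3 ± 1.1 TPM at 12D and 769 ± 170.2 TPM at 0D. LHCB7 (AT1G76570), with 6.96 ± 1.36 TPM at 12D against 4.6 ± 0.256 TPM at 0D, was not called.

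Of the nuclear subunits of the photosystems and of electron transport, 0 of 34 members tested were called higher and 33 lower, with a median relative change of -4.94. PSBR (AT1G79040), of photosystem II, averaged 445 ± 122 TPM at 12D and 5952 ± 205 TPM at 0D, and PSAN (AT5G64040), of photosystem I, 25.4 ± 7.4 TPM at 12D and 1436 ± 50.7 TPM at 0D (relative change -6.96). PGR5 (AT2G05620), of cyclic electron flow, had 12.6 ± 3.32 TPM at 12D against 19.4 ± 0.613 TPM at 0D and was not called. In the Calvin-Benson cycle, 0 of 23 members tested (1 through 12D alone) were called higher and 17 lower, with a median relative change of -3.55. CA1 (AT3G01500), the chloroplast carbonic anhydrase grouped with them, had 9.23, 4.55 and 3.29 TPM at 12D, against 615, 629.5 and 561 TPM at 0D, a relative change of -7.75 ± 0.44 (SE), adjusted p = 1.91e-13. RBCS1A (AT1G67090), a small subunit of Rubisco, had 199.7, 196 and 158 TPM at 12D, against 3727, 4109 and 1552 TPM at 0D, a relative change of -5.12 ± 0.43 (SE), adjusted p = 3.23e-09. Photorespiration gave 1 higher and 6 lower of 15 tested, median relative change -1.77, and chlorophyll and haem synthesis 1 higher and 18 lower of 27 tested, median relative change -2.23. CHLM (AT4G25080), a methyltransferase of chlorophyll synthesis, had 4.9 ± 1.58 TPM at 12D against 81.5 ± 4.08 TPM at 0D (relative change -5.0).

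Plastid loci themselves, recognised by their identifiers, gave 41 lower and 0 higher calls among 71 tested, with a median relative change of -2.37. Mitochondrial loci gave 16 higher and 0 lower of 59, median 0.39. Over all loci tested 38.7% were higher and 12.3% lower, so a smaller share of mitochondrial loci was called higher. Of nuclear genes for plastid ribosomes and for plastid RNA polymerase, 5 of 38 members tested (4 through 12D alone) were called higher and 17 lower, with a median relative change of -1.1. SIG5 (SIGE in the annotation, AT5G24120), a stress-responsive sigma factor of that polymerase, was higher with 26.4 ± 9.57 TPM at 12D against 2.32 ± 0.549 TPM at 0D, and the ribosomal protein PSRP5 (AT3G56910) lower with 29.1 ± 8.63 TPM at 12D against 231 ± 14.7 TPM at 0D. Cytosolic ribosomal proteins gave 1 higher and 1 lower of 34 tested, median relative change -0.70, and 23 lower after scaling alone. Of photoprotection genes, 3 of 14 members tested (1 through 12D alone) were called higher and 6 lower, with a median relative change of -0.65. ELIP1, given above, was the highest of them, and ELIP2 (AT4G14690) was called higher at a far lower level, with 5.64 ± 3.9 TPM at 12D against 0.239 ± 0.279 TPM at 0D. In these bulk samples fewer green cells and less RNA per cell cannot be told apart.

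Most water channels were lower at 12D. Of the aquaporins, 4 of 24 members tested (1 through 12D alone and 1 through 0D alone) were called higher and 14 lower, with a median relative change of -2.48. TIP2 (AT3G26520), a channel of the vacuole membrane also called TIP1;2, had 8.53, 5.4 and 6.12 TPM at 12D, against 559, 572 and 417 TPM at 0D, a relative change of -7.24 ± 0.33 (SE), adjusted p = 3.88e-15. DELTA-TIP (AT3G16240) had 7.68, 5.89 and 4.37 TPM at 12D, against 303, 288 and 308 TPM at 0D, a relative change of -6.61 ± 0.37 (SE), adjusted p = 3.31e-13. PIP2A (AT3G53420), of the plasma membrane, averaged 16.5 ± 1.62 TPM at 12D and 299 ± 26.5 TPM at 0D. In the other direction, PIP1;4 (AT4G00430) and PIP2;5 (AT3G54820) were called higher, with 147 ± 6.18 TPM at 12D against 27.8 ± 7.78 TPM at 0D and 18.9 ± 0.952 TPM at 12D against 3.33 ± 0.771 TPM at 0D.

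Growth lists also held more lower than higher calls. Of the genes of cell wall loosening and synthesis, 6 of 46 members tested (5 through 12D alone and 12 through 0D alone) were called higher and 26 lower, with a median relative change of -2.31. XTH7 (AT4G37800), a xyloglucan-modifying enzyme, had 1.2, 0.0887 and 0.442 TPM at 12D, against 62.5, 63.5 and 61.8 TPM at 0D, a relative change of -6.55 ± 0.48 (SE), adjusted p = 7.99e-11, and the expansin EXPA6 (AT2G28950) averaged 0.916 ± 0.955 TPM at 12D and 33.9 ± 2.96 TPM at 0D. Among those higher were the secondary-wall cellulose synthases CESA4 (AT5G44030), CESA7 (IRX3 in the annotation, AT5G17420) and CESA8 (IRX1 in the annotation, AT4G18780). They averaged 3.68, 3.69 and 4.84 TPM at 12D, and 0.203, 0.151 and 0.28 TPM at 0D. Auxin response and transport gave 6 higher and 17 lower of 41 tested, 5 through 12D alone and 8 through 0D alone, median relative change -0.99. The SAUR gene at AT4G38860 had 0.436, 0.348 and 0.793 TPM at 12D, against 48.5, 50.5 and 52.2 TPM at 0D, a relative change of -6.24 ± 0.23 (SE), adjusted p = 1.38e-16. The influx carrier AUX1 (AT2G38120) averaged 2.79 ± 1.78 TPM at 12D and 20.8 ± 2.28 TPM at 0D. Gibberellin and brassinosteroid genes gave 4 higher and 13 lower of 32 tested, 4 through 12D alone and 2 through 0D alone, median relative change -1.12, with GASA6 (AT1G74670), a growth-related peptide, at 4.94 ± 2.06 TPM at 12D against 84.6 ± 4.43 TPM at 0D. In the list of the cell cycle, 5 of 27 members tested (4 through 12D alone and 2 through 0D alone) were called higher and 9 lower, with a median relative change of -1.09. The cyclin CYCD3;1 (AT4G34160) had 0.151 ± 0.0995 TPM at 12D against 2.27 ± 0.515 TPM at 0D. The cell cycle inhibitor SMR5 (AT1G07500) rose, with 223, 310.4 and 343 TPM at 12D, against 6.15, 2.85 and 4.05 TPM at 0D, a relative change of 4.64 ± 0.53 (SE), adjusted p = 1.53e-07.

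Glucosinolates are sulfur-rich defence compounds of this plant family. Of the genes of their synthesis and transport, 1 of 27 members tested (7 through 0D alone) were called higher and 17 lower, with a median relative change of -2.82. BCAT4 (AT3G19710), of the first step from methionine, averaged 2.2 ± 1.09 TPM at 12D and 57.9 ± 3.88 TPM at 0D. The glutathione transferase GSTU20 (AT1G78370) had 4.03, 5.56 and 4.1 TPM at 12D, against 123, 142 and 141 TPM at 0D, a relative change of -5.78 ± 0.29 (SE), adjusted p = 4.98e-14. The regulator MYB29 (AT5G07690) had 0.38 ± 0.218 TPM at 12D against 3.33 ± 0.404 TPM at 0D. GTR1 (AT3G47960), a glucosinolate transporter, was the 1 member called higher, with 47.2 ± 7.45 TPM at 12D against 6.98 ± 2.54 TPM at 0D. Flavonoid and anthocyanin genes moved the other way, with 13 higher and 0 lower of 17 tested, 5 through 12D alone, median relative change 1.43. The anthocyanin regulator MYB90 (AT1G66390) averaged 52.3 ± 10.9 TPM at 12D and 0.0225 ± 0.039 TPM at 0D, and DFR (AT5G42800), an enzyme of the anthocyanin branch, 114 ± 6.95 TPM at 12D and 1.93 ± 0.629 TPM at 0D.

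Lists of the surface and of the clock were mixed or high. Lipid transfer proteins gave 5 higher and 2 lower of 8 tested, 1 through 12D alone, median relative change 1.36, and cuticular wax and cutin genes 9 higher and 6 lower of 30 tested, 5 through 12D alone and 1 through 0D alone, median relative change -0.68. The wax regulators MYB94 (AT3G47600) and MYB96 (AT5G62470) had 23.1 ± 7.46 TPM at 12D against 1.46 ± 0.719 TPM at 0D and 9.57 ± 1.25 TPM at 12D against 1.87 ± 0.24 TPM at 0D, both called higher, while the cutin hydroxylase CYP86A2 (AT4G00360) had 8.78 ± 0.491 TPM at 12D against 47.1 ± 1.99 TPM at 0D and was lower. Of clock genes, 21 of 31 members tested (8 through 12D alone) were called higher and 1 lower, with a median relative change of 0.84, and 17 were higher without Col0 12D replicate 3. FKF1 (AT1G68050), a light receptor with a peak late in the day, had 52.9, 79.6 and 83.2 TPM at 12D, against 0.0922, 0.174 and 0.0782 TPM at 0D, a relative change of 4.85 ± 0.32 (SE), adjusted p = 3.29e-15. The evening genes ELF4 (AT2G40080) and PRR5 (AT5G24470) averaged 49.9 ± 41.6 TPM at 12D and 0.142 ± 0.246 TPM at 0D, and 55.1 ± 15.1 TPM at 12D and 0.912 ± 0.138 TPM at 0D. The morning genes CCA1 (AT2G46830) and LHY (AT1G01060) were called higher too, with 11.7 ± 3.91 TPM at 12D against 0.786 ± 0.373 TPM at 0D and 8.33 ± 3.79 TPM at 12D against 0.579 ± 0.232 TPM at 0D. The hour of harvest is not given in the sources used here.

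Beside antenna genes, CA1 and TIP2, the 12 largest falls included secreted proteins. GER1 (AT1G72610), a germin-like protein of the cell wall, had 3.8, 1.36 and 0.677 TPM at 12D, against 434, 504 and 284 TPM at 0D, a relative change of -8.37 ± 0.35 (SE), adjusted p = 4.37e-16. The protease inhibitor or lipid transfer-like protein at AT2G45180 had 10.5, 1.93 and 1.84 TPM at 12D, against 551, 546 and 598 TPM at 0D, a relative change of -8.11 ± 0.38 (SE), adjusted p = 4.66e-15. Its relative at AT2G10940 averaged 0.853 ± 0.457 TPM at 12D and 129.8 ± 39 TPM at 0D. ECS1 (AT1G31580), a cell wall protein, averaged 8.92 ± 6.55 TPM at 12D and 941 ± 60.9 TPM at 0D. PCC1 (AT3G22231), named for control by pathogens and the clock, averaged 2.8 ± 2.25 TPM at 12D and 299 ± 27.9 TPM at 0D, and the uncharacterized AT5G42530 10.6 ± 6.83 TPM at 12D and 913 ± 28 TPM at 0D. The thionin at AT1G66100 was listed at 0 in all 3 Col0 12D libraries, against 84.7, 100.3 and 112 TPM in the Col0 0D libraries. At several of these loci Col0 12D replicate 1 was the highest of the 3, for example 10.5 TPM at AT2G45180 beside 1.93 and 1.84 TPM.

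Not all of the loci with the highest levels were called. Of those left uncalled, AT1G15405, RR3, AT3G63052 and AT2G35750 were called higher on TPM alone. AT1G15405, annotated as an RNA that encodes no protein, had 115433, 160704 and 109140 TPM at 12D, against 33389, 37233 and 35717 TPM at 0D, and was not called (a relative change of 0.68 ± 0.55 (SE), adjusted p = 0.561). RR3 (AT2G41310), a cytokinin response regulator, averaged 7683 ± 1226 TPM at 12D and 2414 ± 87.8 TPM at 0D and AT3G63052 5619 ± 837 TPM at 12D and 1718 ± 72.3 TPM at 0D, neither called. AT2G07671 and AT2G07707 carry mitochondrial ATP synthase genes on chromosome 2 and may share reads with the mitochondrial genome. They averaged 9406 ± 1943 and 4228 ± 1012 TPM at 12D and 4952 ± 66.1 and 2204 ± 104 TPM at 0D and were not called. MT2A (AT3G09390), a metallothionein that binds metals, was called higher with 3364, 4264 and 3531 TPM at 12D, against 139, 137 and 155 TPM at 0D, a relative change of 3.52 ± 0.39 (SE), adjusted p = 1.76e-11. AT2G35750 averaged 3173 ± 1228 TPM at 12D and 678 ± 117 TPM at 0D (not called), and AT2G31141 2738 ± 298 TPM at 12D and 529.9 ± 33.8 TPM at 0D, a call that was lost in 5 of 6 fits without 1 library. At 0D the list of the 8 highest was otherwise made of CAB1, CAB2 (AT1G29920), CAB3 (AT1G29910), LHB1B2 (AT2G34420), PSBR and RBCS1A, all of which were lower at 12D.

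A set of 323 tested loci was at 0 in all Col0 0D libraries and above 0 in all Col0 12D libraries. Besides LEA7, GILT and LTI65, the highest was AT4G31830, an uncharacterized protein, with 68.1, 106 and 104 TPM at 12D. Next came DELTA-VPE (AT3G20210), a vacuolar processing enzyme known from seed coats, with 50.2, 83.9 and 100.2 TPM, and the pectin methylesterase inhibitor-like AT4G15750 with 32.1, 62.1 and 66.1 TPM. AtMT4a (AT2G42000), a metallothionein known from seeds, had 42.9, 65.7 and 36.9 TPM, and the lipid transfer-like AT5G38160 had 19.2, 20.7 and 89.2 TPM, the highest in replicate 3.

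Markers of reproductive organs were measured beside these loci. The 22 pollen and tapetum markers summed to 50.6, 54.7 and 52.7 TPM at 12D, against 0.33, 0.42 and 0.22 TPM at 0D. Their 7 members that passed the filter were all called higher, but 5 of them were at 0 in every Col0 0D library, and all passed the filter through Col0 12D alone. Floral organ markers (7 higher and 1 lower of 10 tested, 7 through 12D alone, median relative change 0.93) summed to 39.5, 40.5 and 44.5 TPM at 12D, against 11.6, 16.2 and 12 TPM at 0D. AP1 (AT1G69120), which marks floral meristems, was at 1.32 TPM or less in every library. Ovule, seed coat and silique markers (6 higher and 0 lower of 11 tested, 6 through 12D alone, median relative change 0.58) summed to 82.8, 99.2 and 89.1 TPM at 12D, against 23.8, 29.1 and 20.6 TPM at 0D. Seed storage and oil body proteins, of which all 3 tested (2 through 12D alone) were higher, summed to 15, 30.8 and 45.6 TPM at 12D, against 2.08, 2.13 and 1.36 TPM at 0D, and the storage proteins CRU2 (AT1G03880) and SESA1 (AT4G27140) were at 0 in all 6 libraries. On deposited TPM, pollen, ovule and floral sums were thus higher in every Col0 12D library than in any Col0 0D library. The same held for 71.1% of all loci tested, and sums after scaling were not compared. The part of these lists in the results above was not tested. Root markers (1 higher and 2 lower of 6 tested, 1 through 12D alone, median relative change -1.29) summed to 15.8, 15.4 and 11.3 TPM at 12D, against 32.2, 34.9 and 26 TPM at 0D, and leaf markers (0 higher and 6 lower of 11 tested, 1 through 0D alone, median relative change -2.14) to 491, 474 and 391 TPM at 12D, against 9218, 9708 and 6075 TPM at 0D. Of the root markers, PLT2 (AT1G51190), a transcription factor of the root stem cell niche, was at 0 in all 6 libraries of these whole plants.

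The change to 12D differed between Col0 and pp7l at many loci. In pp7l, the same 12 days were compared in 3 libraries at 12D and 3 at 0D, which share no library with Col0. The difference (Col0 change minus pp7l change) was called higher at 4232 loci (26.1%) and lower at 1399 (8.64%) on both scales. The counts were 5935 and 1402 on TPM alone and 4243 and 3779 after scaling alone. Values of the difference below are given less its median of 0.64. Calls and adjusted p-values test the difference before that median is taken off. The loci had been filtered on Col0 libraries alone, which bears on this split. With the filter set over all 29 libraries, 4380 of 18757 loci were called higher and 1668 lower. Plastid loci held 64.8, 64.8 and 65.5% of TPM in the pp7l 12D libraries and 68.9, 70.6 and 69.8% in the pp7l 0D libraries, a smaller gap than in Col0.

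Protective genes gave examples of the difference. RAB18 had 2264, 2426 and 3455 TPM in Col0 at 12D, and averaged 82.9 ± 45.5 TPM at 12D and 2.0 ± 1.01 TPM at 0D in pp7l (difference 4.62 ± 0.73 (SE), adjusted p = 2.74e-05). HAI1 averaged 9.39 ± 3.0 TPM at 12D and 0.465 ± 0.0411 TPM at 0D in pp7l (difference 3.83 ± 0.48 (SE), adjusted p = 7.51e-08). NCED3 averaged 3.19 ± 0.358 TPM at 12D and 2.0 ± 0.0462 TPM at 0D in pp7l (difference 2.16 ± 0.42 (SE), adjusted p = 9.55e-05). The antenna gene LHB1B1 averaged 53 ± 5.46 TPM at 12D and 1360 ± 43.7 TPM at 0D in pp7l, a smaller fall than in Col0 (difference -4.38 ± 0.51 (SE), adjusted p = 1.77e-06). For some genes no difference was called. LTP3 averaged 293 ± 22.4 TPM at 12D and 1.34 ± 0.304 TPM at 0D in pp7l (difference 0.00 ± 0.79 (SE), adjusted p = 0.783). PP2CA averaged 71.5 ± 2.85 TPM at 12D and 12 ± 1.07 TPM at 0D in pp7l (difference 0.62 ± 0.45 (SE), adjusted p = 0.238), and SAG12 29.1 ± 15.6 TPM at 12D and 0.044 ± 0.0382 TPM at 0D in pp7l (difference -0.46 ± 0.66 (SE), adjusted p = 0.92). These p-values do not show that the changes were alike.

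Of the 6 loci with the largest differences upwards, all but Hsp70-2 averaged 1.54 TPM or less in pp7l on both days. GILT averaged 0.0531 ± 0.092 TPM at 12D and was at 0 at 0D in pp7l. Its homologue AT4G12870 averaged 105 ± 44.3 TPM in Col0 at 12D and 0.44 ± 0.258 TPM at 12D and 0.52 ± 0.275 TPM at 0D in pp7l (difference 5.4 ± 0.63 (SE), adjusted p = 1.4e-07). DELTA-VPE and AT4G15750 were at 0 in all 6 pp7l libraries of these days. SAG29 averaged 1.54 ± 1.19 TPM at 12D and 0.0624 ± 0.108 TPM at 0D in pp7l (difference 5.38 ± 0.55 (SE), adjusted p = 3.05e-09). The chaperone Hsp70-2 (AT5G02490) averaged 76.1 ± 12.3 TPM at 12D and 1.05 ± 0.662 TPM at 0D in Col0 and 6.4 ± 2.1 TPM at 12D and 8.6 ± 0.54 TPM at 0D in pp7l (difference 5.06 ± 0.62 (SE), adjusted p = 5.81e-08). The largest differences downwards included loci that moved in opposite directions. RAV2 (AT1G68840), a repressor of flowering also called TEM2, averaged 1.01 ± 0.477 TPM at 12D and 24.9 ± 0.775 TPM at 0D in Col0 and 39.8 ± 2.64 TPM at 12D and 9.97 ± 0.537 TPM at 0D in pp7l (difference -6.25 ± 0.39 (SE), adjusted p = 2.28e-11). The DnaJ-domain protein at AT1G72416 averaged 0.75 ± 0.347 TPM at 12D and 7.95 ± 0.619 TPM at 0D in Col0 and 57.2 ± 15.8 TPM at 12D and 4.55 ± 0.646 TPM at 0D in pp7l (difference -6.36 ± 0.50 (SE), adjusted p = 1.46e-09). GER1, AT2G45180, PCC1 and the lipid transfer protein LTP (AT2G15050) fell in Col0, LTP to 1.32 ± 0.959 TPM at 12D against 55 ± 7.71 TPM at 0D. In pp7l at 12D the 4 held 229 ± 56.9, 277 ± 65.9, 207 ± 10.3 and 35.3 ± 5.6 TPM, against 608 ± 15.1, 394 ± 12.2, 283 ± 14.9 and 24.8 ± 4.07 TPM in pp7l at 0D.

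**Figure D4:**
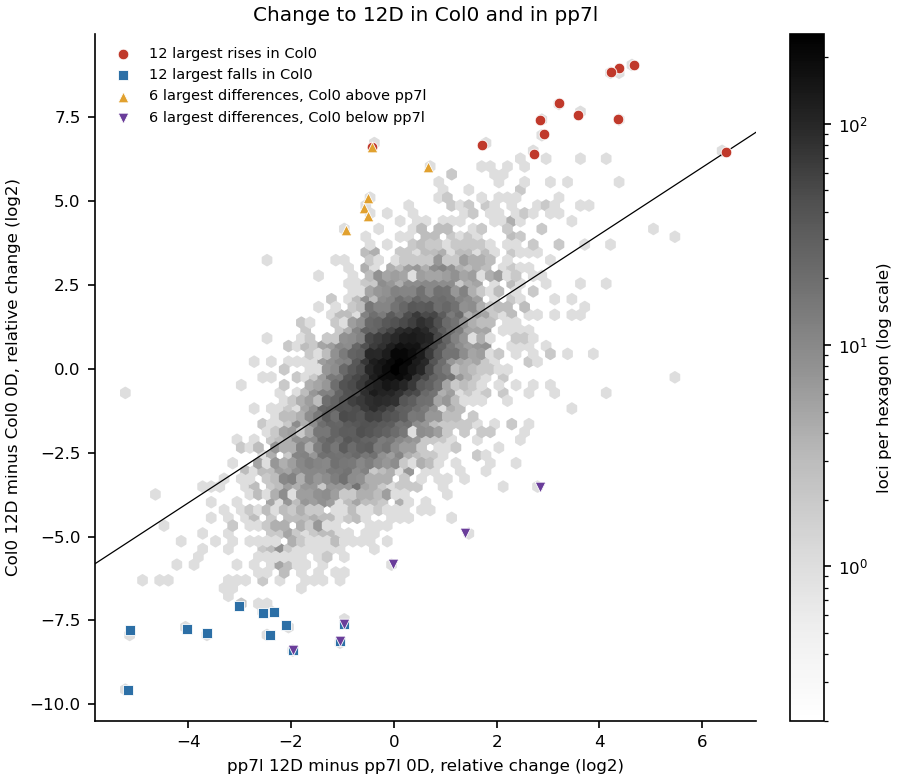
Relative change to 12D in Col0 (y axis) against that in pp7l (x axis), both on log2(TPM + 1), for all 16193 loci (grey hexagons, darker with more loci on a log scale) and for named loci (coloured points). The line marks equal change, LTP3 lies on it at 6.45 in Col0 and 6.47 in pp7l, and the other 11 largest rises, chosen for their change in Col0, lie above it.

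By list, the median relative change in pp7l had the same sign as in Col0 but was smaller for the antenna (-5.15 in Col0 and -1.99 in pp7l), for dehydrins and LEA proteins (3.58 and 1.6) and for senescence genes (1.77 and 0.34). It was larger in pp7l for flavonoid genes (1.43 in Col0 and 2.2 in pp7l). The difference itself was called at 16 of 21 antenna genes, all in the direction of a larger fall in Col0. Of 15 dehydrin and LEA genes tested, it was called upwards at 9 and downwards at 1. Of 17 flavonoid genes tested, it was called at 3 in each direction. Over all loci tested the difference was called upwards at 26.1% and downwards at 8.64%.

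The days around 12D place these levels in time. RAB18 averaged 1.68 ± 0.594, 37.9 ± 27.7, 2715 ± 646 and 414 ± 189 TPM at 0D, 9D, 12D and 15D in Col0 (SD, n = 3 each), and HAI1 0.558 ± 0.0991, 11.1 ± 0.786, 238 ± 32.4 and 126 ± 60.3 TPM. On TPM as deposited, both were highest at 12D. The Col0 15D libraries gave 27.5, 0.11 and 61.2% of TPM to nuclear rRNA loci. Their median-of-ratios scaling factors were 0.555, 0.467 and 0.161, against 1.67, 1.85 and 1.51 for Col0 12D. The order of 12D and 15D was not tested on scaled values. LTP4 was already at 771 ± 19.4 TPM at 9D. LHB1B1 averaged 2257 ± 212, 53.2 ± 12.4, 5.67 ± 0.406 and 0.888 ± 0.595 TPM on the same days and GER1 407 ± 112, 166 ± 3.49, 1.95 ± 1.64 and 0.875 ± 0.467 TPM. The antenna gene was thus low at 9D already, while GER1 still held 166 TPM on that day. On TPM as deposited, both were far lower at 12D and 15D than at 0D. All later days share the Col0 0D libraries as their baseline, so these courses are given as levels and were not tested against each other.

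**Figure D5:**
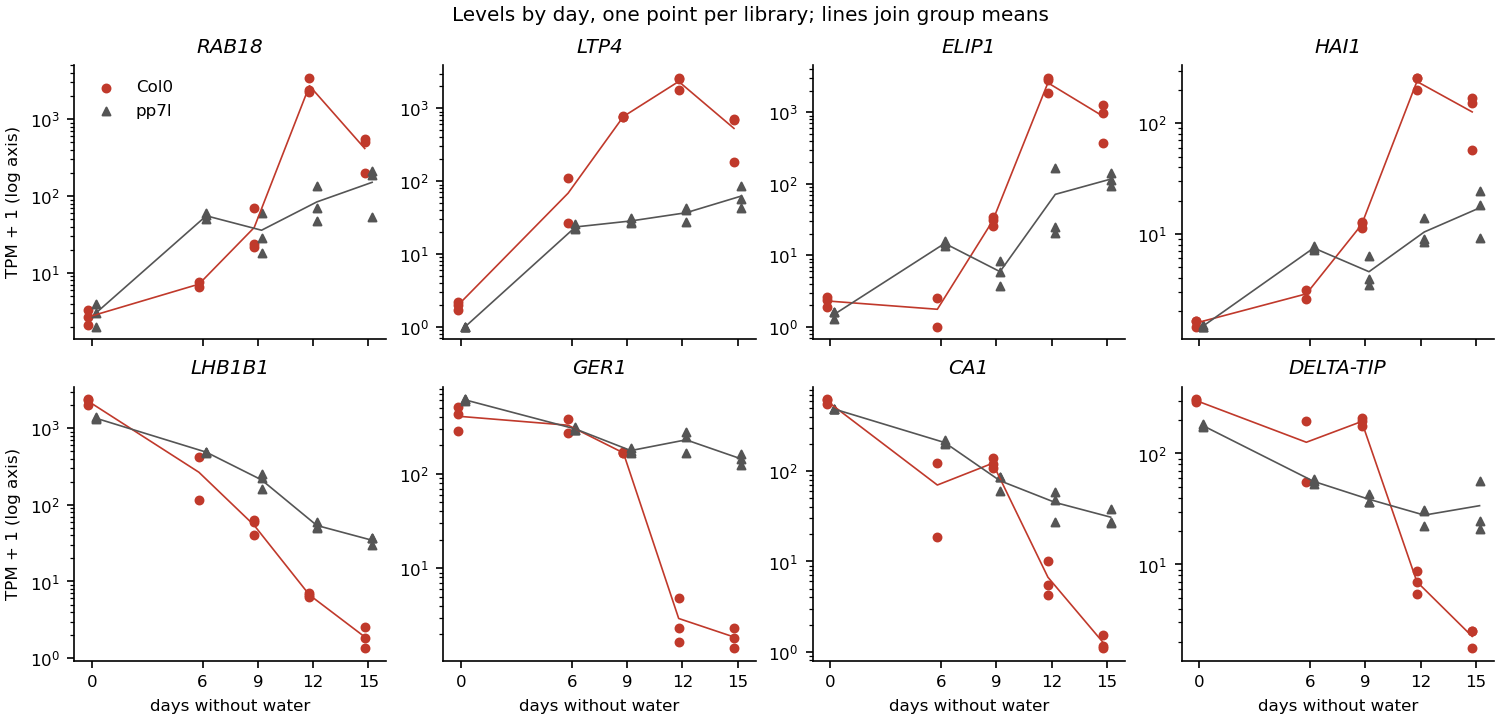
TPM + 1 (log axis) against days without water for 8 loci, one point per library, red circles for Col0 and grey triangles for pp7l, with lines through group means (n = 3, but n = 2 for Col0 at 6D). On TPM as deposited, the Col0 means of the upper 4 loci peak at 12D, with RAB18 at 2715 TPM. The lower 4 are at 12D far below their level at 0D in Col0. Libraries were not scaled for this figure.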

How the data were processed

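Total RNA of whole plants was sequenced. The deposited table gives TPM (length-corrected shares of transcripts) per locus and library. Per the submitters' processing notes, the authors used Trimmomatic, FastQC, Salmon and TAIR10, with versions not given in the sources used here. Read counts were not used here and the depth is unknown. The precision therefore rests on the spread between libraries within groups, estimated over all 29 libraries. All columns were matched to samples by name.

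Loci with at least 1 TPM in at least 3 of the 6 Col0 12D and 0D libraries were tested with limma 3.58.1 (R 4.3.3) on log2(TPM + 1). The fit held 10 group means over all 29 libraries, with 19 residual degrees of freedom, an intensity trend and Benjamini-Hochberg adjustment over 16193 loci. A locus was called at an adjusted p below 0.05 in the same direction on the deposited TPM and after median-of-ratios scaling, and the larger adjusted p is printed. The difference between Col0 and pp7l was the interaction in the same fit. The call was tried on simulated data for Col0 12D against 0D, with 16193 loci. It recovered 41 of 100 loci given a log2 change of 1 and 90 of 100 given a log2 change of 2. Both sizes of change were set in the same simulated data, in which 3 loci given no change were called too. Rises and falls were not counted apart. Recovery of falls under the median shift of 1.16 that the data showed on TPM was not tested. In the data, lower calls numbered 1985 by the rule and 5655 after scaling alone.

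Named loci were the 12 largest rises and falls with a mean of at least 10 TPM, the 8 highest in each group, the 8 highest of those at 0 at 0D, the 6 largest differences from pp7l in each direction, and up to 5 members of each gene list. In the lists of dehydrins, the antenna, drought factors and senescence, which share members with other lists or other parts of this rule, more than 5 are named, and the further members were chosen after their values were seen. The comparison, the gene lists and the call rule were chosen with earlier results of these data known. The 6 promoter windows shown were also chosen after the values were seen. Gene names, products and the 250-base promoter windows come from RefSeq's TAIR10.1 annotation, in which 32954 of the 33681 loci were found. Alternatives were another pseudocount, other filters, each scaling alone, fewer libraries, array weights, a replicate block and leaving out each library. Figures were drawn with matplotlib 3.10.9.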

Additional observations from a re-analysis of the deposited data

Results flagged for a closer look

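The change to 12D differed between Col0 and pp7l by limma's interaction term, which is what marks each result here. The difference (Col0 change minus pp7l change) was called higher at 4232 loci and lower at 1399. It was called at 11 of the 12 loci with the largest rise in Col0, all but LTP3, and at 12 of the 12 with the largest fall. These loci were chosen for their change in the Col0 libraries, which is the first term of the difference, so both counts are a description and support nothing.

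Of loci with the largest difference upwards, GILT averaged 229 ± 86.5 TPM in Col0 at 12D and 0.0531 ± 0.092 TPM in pp7l at 12D (adjusted p = 2.28e-11). DELTA-VPE averaged 78.1 ± 25.5 TPM in Col0 at 12D and was listed at 0 in pp7l (adjusted p = 5.01e-12). AT4G12870 averaged 105 ± 44.3 TPM in Col0 at 12D, against 0.44 ± 0.258 TPM in pp7l (adjusted p = 1.4e-07). SAG29 averaged 174 ± 63.4 TPM in Col0 and 1.54 ± 1.19 TPM in pp7l (adjusted p = 3.05e-09). AT4G15750 averaged 53.4 ± 18.6 TPM in Col0 and 0 in pp7l (adjusted p = 1.04e-10), and Hsp70-2 76.1 ± 12.3 TPM in Col0 and 6.4 ± 2.1 TPM in pp7l (adjusted p = 5.81e-08).

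Downwards, AT2G45180 averaged 4.75 ± 4.96 TPM in Col0 at 12D, against 277 ± 65.9 TPM in pp7l (adjusted p = 7.34e-10). PCC1 averaged 2.8 ± 2.25 TPM in Col0 and 207 ± 10.3 TPM in pp7l (adjusted p = 3.59e-06). GER1 averaged 1.95 ± 1.64 TPM in Col0 and 229 ± 56.9 TPM in pp7l (adjusted p = 7.72e-10). AT1G72416 averaged 0.75 ± 0.347 TPM in Col0 and 57.2 ± 15.8 TPM in pp7l (adjusted p = 1.46e-09). RAV2 averaged 1.01 ± 0.477 TPM in Col0 and 39.8 ± 2.64 TPM in pp7l (adjusted p = 2.28e-11), and LTP 1.32 ± 0.959 TPM in Col0 and 35.3 ± 5.6 TPM in pp7l (adjusted p = 6.93e-07).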

How the results depend on the processing

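The counts of higher and lower calls moved most with the scaling. Loci called higher numbered 10774 on TPM alone, against 6263 by both scales. Loci called lower numbered 5655 after median-of-ratios scaling alone and 3319 on TPM rescaled to nuclear loci without rRNA, against 1985. The cause was not tested. The count of loci with a difference from pp7l moved most with array weights, to 8384 against 5631, and was 8022 after median-of-ratios scaling alone. With only the libraries of the groups compared, 6547 loci were higher, 2273 lower and 7200 different from pp7l. Fits without both Col0 6D libraries gave 6782, 2260 and 7020. All of these counts were above those of the main fit, whose spread was estimated over all 29 libraries. Without Col0 12D replicate 3 the median of the guard cell list was -0.01 against 0.06, and that of the flowering list 0.01 against -0.03. Leaving out 1 library in turn gave 5858 to 6029 higher loci, 1740 to 1927 lower loci and 4851 to 5547 loci with a difference from pp7l. Of 800 relative changes of named loci under an alternative, 786 kept their direction and side of the threshold, 9 came to pass it and 5 no longer passed it, all 5 of these at AT2G31141. Medians of the lists moved by more than 1 SD between replicates in 240 of 800 cases. Same-numbered libraries at 12D and 0D were not tied by the labels, and their deviations correlated at 0.06, 0 and 0.06. With a replicate block, 6234 loci were higher, 1958 lower and 5523 different from pp7l. The depth is unknown, so loci at 0 have no stated floor.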

Other observations

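Over all loci tested 38.7% were higher and 12.3% lower, and each count in this section stands beside these shares. Hormone and defence lists outside the comparisons above were split. Of jasmonate genes, 5 of 35 members tested (2 through 12D alone and 2 through 0D alone) were called higher and 10 lower, with a median relative change of -0.67. LOX2 (AT3G45140) and AOS (AT5G42650), enzymes of jasmonate synthesis, were lower, with 1.8 ± 0.713 TPM at 12D against 25.9 ± 11.4 TPM at 0D and 18.5 ± 4.68 TPM at 12D against 91.9 ± 10.9 TPM at 0D. VSP1 (AT5G24780), a storage protein that jasmonate induces, was higher with 29.1 ± 1.88 TPM at 12D against 3.51 ± 2.01 TPM at 0D. Of salicylic acid and defence genes, 15 of 27 members tested (8 through 12D alone) were called higher and 3 lower, with a median relative change of 0.32. PBS3 (AT5G13320), of salicylic acid synthesis, averaged 31.1 ± 6.44 TPM at 12D and 0.42 ± 0.174 TPM at 0D, and PAD3 (AT3G26830), of camalexin synthesis, 42.5 ± 8.64 TPM at 12D and 0.176 ± 0.159 TPM at 0D. The marker PR1 (AT2G14610) was lower, with 1.55 ± 1.65 TPM at 12D against 10.8 ± 0.40 TPM at 0D. Ethylene genes gave 13 higher and 2 lower of 23 tested, 5 through 12D alone and 2 through 0D alone, median relative change 0.63. EIN3 (AT3G20770), the central transcription factor of the pathway, averaged 53.5 ± 7.21 TPM at 12D and 5.06 ± 1.71 TPM at 0D. Cytokinin genes gave 7 higher and 10 lower of 31 tested, 6 through 12D alone and 5 through 0D alone, median relative change -0.43, with the oxidase CKX4 (AT4G29740) lower at 0.0218 ± 0.0378 TPM at 12D against 2.9 ± 0.539 TPM at 0D.

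Guard cell genes gave 10 higher and 2 lower of 21 tested, 7 through 12D alone and 2 through 0D alone, median relative change 0.06. The outward potassium channel GORK (AT5G37500) averaged 18.4 ± 4.5 TPM at 12D and 0.291 ± 0.0748 TPM at 0D, and the stomatal patterning gene TMM (AT1G80080) was lower with 0.619 ± 0.296 TPM at 12D against 3.5 ± 1.19 TPM at 0D. Flowering genes gave 9 higher and 3 lower of 22 tested, 6 through 12D alone, median relative change -0.03. These flowering counts lie near the shares over all loci (38.7% higher and 12.3% lower). FT (AT1G65480), the mobile flowering signal, averaged 12.2 ± 2.09 TPM at 12D and 0.102 ± 0.121 TPM at 0D. Suberin and lignin genes gave 12 higher and 1 lower of 24 tested, 7 through 12D alone, median relative change 0.38, led by CAD5 (AT4G34230) with 104 ± 24.3 TPM at 12D against 5.25 ± 0.578 TPM at 0D. Of nutrition genes, 12 of 44 members tested (3 through 12D alone and 3 through 0D alone) were called higher and 9 lower, with a median relative change of -0.11. The cytosolic glutamine synthetase GLN1.3 (AT3G17820) averaged 101 ± 8.73 TPM at 12D and 5.64 ± 2.8 TPM at 0D, whereas the plastid form GS2 (AT5G35630) was lower with 25.6 ± 5.85 TPM at 12D against 79.4 ± 31.7 TPM at 0D. Among loci annotated as miRNA, 3 were higher and 7 lower of 20, with a median relative change of -1.44.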
